A study of Arabidopsis thaliana with 72 samples.

Results

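LBD16, LBD29 and HAT2 are 3 transcription factor genes of Arabidopsis known to respond to auxin. They were followed through their probe sets on an expression array, 265856_at for LBD16 (AT2G42430), 251565_at for LBD29 (AT3G58190) and 248801_at for HAT2 (AT5G47370), 3 of 22746 probe sets without controls. All 3 passed the filter on dim signals and so were among the 17262 probe sets tested. The files name no genome build, so no coordinates are given.

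Seedlings grown at 22 °C were taken whole at 7 days of age and hybridised to 72 arrays, 2 for each of 36 groups. The wild type Col-0 received mock treatment, 1 µM IAA (indole-3-acetic acid, the main natural auxin), 1 µM zeatin (a cytokinin), 1 µM GA3 (a gibberellin), 10 µM ABA (abscisic acid), 10 µM MJ (methyl jasmonate), 10 µM ACC (the ethylene precursor) or 10 nM BL (brassinolide, a brassinosteroid). The gibberellin-deficient mutant ga1-5 received mock or 1 µM GA3, and the brassinosteroid-deficient mutant det2-1 received mock or 10 nM BL. Each treatment was sampled at 30 min, 1 h and 3 h. All treatments of one genotype and time form a set with its own mock, so the hormones of a set share control arrays. IAA was given to Col-0 alone among the groups used here. Whether paired arrays of a group stem from separate cultures is not stated in the labels, and the p-values therefore cover only the spread among arrays, which can be technical.

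Auxin reaches gene expression through a short chain. The hormone joins TIR1/AFB receptor proteins to Aux/IAA repressors, the repressors are degraded, and the ARF transcription factors they held back act on target genes. LBD16 and LBD29 carry the LOB domain, a plant-specific DNA-binding domain, and act downstream of ARF proteins in starting lateral roots and in forming callus. HAT2 is a homeodomain-leucine zipper protein of class II, a repressor known from auxin and shade responses of the hypocotyl and root.

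The 3 genes differed in how bright their probe sets were without auxin. Levels below are signals scaled to a common mean per array, and levels of different probe sets are not compared as amounts of RNA. HAT2 lay above the 40th percentile of its array on all 72 arrays. LBD16 did so on all 6 IAA arrays and on 33 of the other 66 arrays, and LBD29 on all 6 IAA arrays and 6 of the other 66. The low readings of LBD29 therefore carry little information, and they ranged from 17.1 to 404 over the 66 arrays without IAA. The median SD of a group on the log2 scale was 0.22 for LBD16, 0.40 for LBD29 and 0.16 for HAT2.

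The arrays were alike within groups, with correlations across probe sets of 0.936 to 0.979. Deposited array means were 865 to 1164 in Col-0, 1939 to 2970 in ga1-5 and 1827 to 2410 in det2-1 before scaling. The array ACC 3 h replicate 1 was at 1156, while mock 3 h replicate 1 of the same set was at 1048. The labels give no reason for this. One array, IAA 30 min replicate 2, held impossible values in 1973 probe sets, and none of the 3 genes was among them. Of the 18 root markers on the list only 3 were tested, EXPA7 and EXPA18 of root hairs and the root beta-glucosidase PYK10. Their summed signal was 28277 to 41239 on the Col-0 mock arrays. PYK10 made up most of that sum, with a median of 31773 against 1267 for EXPA18 and 882 for EXPA7. None of the 12 shoot markers on the list is named by a probe set used here. The light-harvesting genes LHCB4.1, LHCB4.2 and LHCB4.3, chosen after the annotation was seen, summed to 56118 to 72785 on the same arrays. In whole seedlings, fewer cells of a type and less RNA per cell cannot be told apart.

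**Figure D1:**
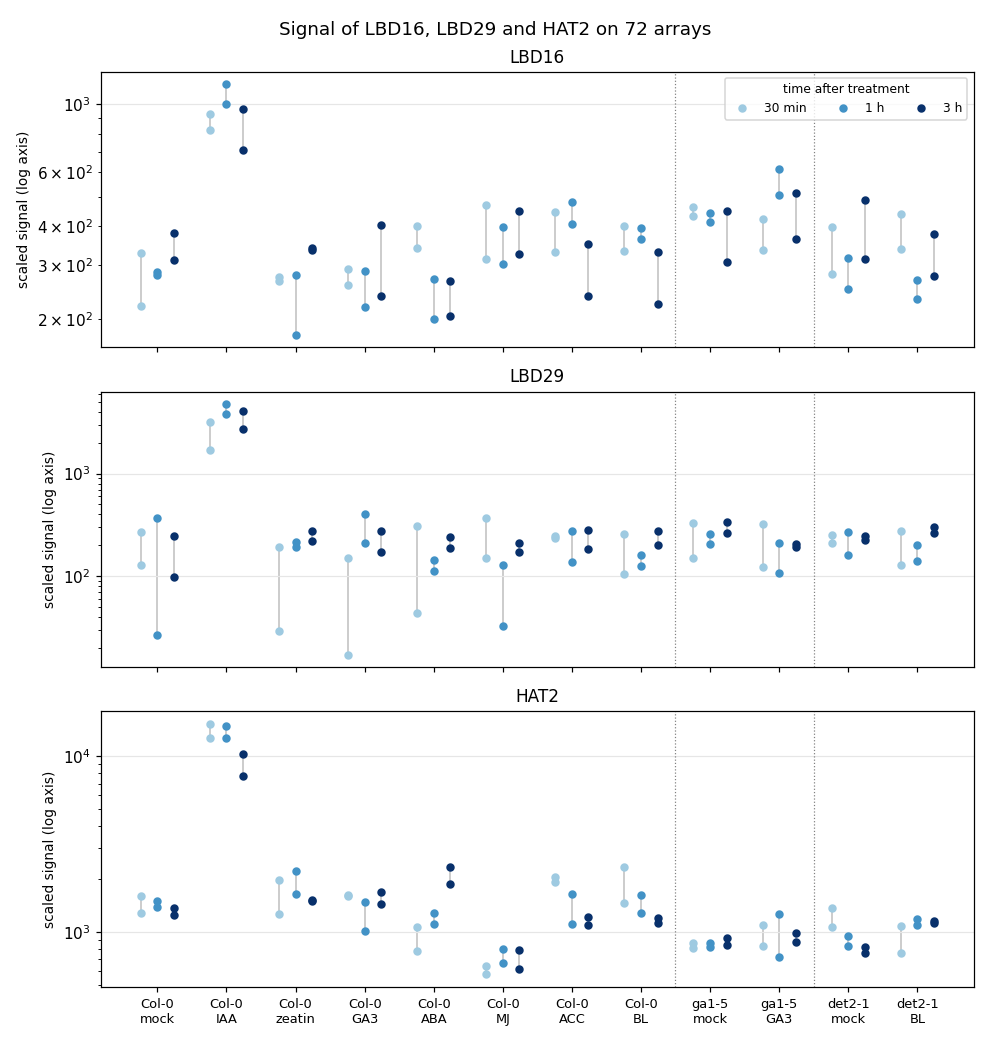
Scaled signal (log axis) of LBD16, LBD29 and HAT2 on all 72 arrays, by genotype and treatment, with 1 point per array, a grey line joining the 2 arrays of a group, and shade giving the time. The IAA arrays of Col-0 lie above all other arrays in each panel, and the MJ groups have the lowest HAT2 means.

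IAA raised all 3 genes at every time in Col-0, and after scaling their 3 IAA groups were the highest 3 of the 36 groups. On the deposited scale, where the mutant arrays are brighter as a whole, that order did not hold for LBD16, whose group mean was 1168 for GA3 at 1 h in ga1-5 and 963 for the highest IAA group. At 30 min, 1 h and 3 h in turn, LBD29 rose 9.80-fold, 23.3-fold and 15.8-fold, HAT2 9.43-fold, 9.27-fold and 6.62-fold, and LBD16 2.87-fold, 3.37-fold and 2.21-fold. Among all probe sets tested, 0.475% were called higher at 30 min, 0.718% at 1 h and 1.72% at 3 h, and 3.05% were called over the time course. Folds are on a scale with a small constant added to each signal, which understates the change of a dim gene such as LBD29.

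LBD16, a gene whose product acts in the first divisions of lateral root founder cells, read 327 and 221 on the 2 mock arrays at 30 min and 930 and 824 on the IAA arrays. At 1 h it read 278 and 284 under mock and 1158 and 998 under IAA. At 3 h the mock arrays read 310.2 and 382 and the IAA arrays 960.1 and 709. The mock and IAA arrays did not overlap at any time. The log2 changes were 1.52 (SE 0.25, adjusted p = 0.000246), 1.75 (adjusted p = 1.19e-05) and 1.14 (adjusted p = 0.0032) by limma's moderated t with 2 arrays per group. The whole time course had an adjusted p of 8.34e-09, and it passed without any 1 of its 12 arrays (highest adjusted p = 2.27e-07). The call at 30 min ended without mock 30 min replicate 2 (adjusted p = 0.0534). The call at 3 h ended without mock 3 h replicate 1 (adjusted p = 0.0791), without IAA 3 h replicate 1 (0.122), on the deposited scale (0.0984) and with only the arrays of that set in the fit (0.0964).

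LBD29, which acts with LBD16 in lateral root formation, went from 269 and 128 under mock to 3190 and 1693 under IAA at 30 min. At 1 h the mock arrays read 372 and 26.9 and the IAA arrays 4766 and 3864. At 3 h the mock arrays read 248 and 98.7 and the IAA arrays 4104 and 2724. The lowest IAA array, at 1693, was above the highest of all 66 arrays without IAA, at 404. The log2 changes were 3.29 (SE 0.57, adjusted p = 0.000494), 4.54 (adjusted p = 8.78e-07) and 3.98 (adjusted p = 5.75e-06). The size of the rise at 1 h depended on the dim mock arrays. Leaving out mock 1 h replicate 1 gave 53.4-fold, and leaving out replicate 2 of that group gave 10.2-fold. The call at 30 min ended without mock 30 min replicate 2 (adjusted p = 0.0609), without IAA 30 min replicate 1 (0.0866) and with only the arrays of that set in the fit (0.0839). The time course had an adjusted p of 1.2e-10 and passed without any 1 of its 12 arrays.

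HAT2, the class II homeodomain-leucine zipper gene, had the smallest spread and the smallest p. It read 1282 and 1607 under mock and 15313 and 12803 under IAA at 30 min. At 1 h it read 1499.5 and 1383 under mock and 12763 and 14932 under IAA. At 3 h the mock arrays read 1243 and 1359.9 and the IAA arrays 10300.2 and 7704. The groups were far apart at all 3 times, and the 3 h IAA group lay below both earlier IAA groups without overlap. The log2 changes were 3.24 (SE 0.23, adjusted p = 1.3e-13), 3.21 (adjusted p = 8.52e-14) and 2.73 (adjusted p = 9.32e-12). The 95% interval of the fold was 6.88 to 12.9 at 30 min, 6.76 to 12.7 at 1 h and 4.82 to 9.07 at 3 h. The time course had an adjusted p of 2.11e-20, and its mean log2 change stayed between 2.99 and 3.13 without any 1 of its 12 arrays.

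The responses at the 3 times were then compared with each other, each taken against its own mock. Each time lies in its own set of arrays, so time and set cannot be told apart. No difference passed for any of the 3 genes. Of all tested probe sets 0% were called between 30 min and 1 h (0 called by limma, 498 at an unadjusted p under 0.05), 0.637% between 30 min and 3 h and 0.307% between 1 h and 3 h. For LBD29 the response at 1 h exceeded that at 30 min by 1.25 on the log2 scale (95% interval -0.39 to 2.89). The LBD16 response at 3 h differed from that at 1 h by -0.61 (-1.33 to 0.11), and the HAT2 response by -0.49 (-1.13 to 0.16). These intervals leave room for differences of more than 1 on the log2 scale. In mock seedlings the levels at 3 h and 30 min differed by 0.30 for LBD16, -0.17 for LBD29 and -0.14 for HAT2, none of which passed, with 0% of all probe sets called (0 by limma, 636 at an unadjusted p under 0.05).

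IAA, zeatin and GA3 were given at the same dose of 1 µM and sampled at the same times, so they were compared directly. All 3 genes were higher under IAA than under either of the other two. Against zeatin the time course differed with adjusted p = 5.93e-10 for LBD16, 1.06e-10 for LBD29 and 1.87e-19 for HAT2, where 5.32% of all probe sets were called. Against GA3 the values were 2.16e-09, 2.21e-10 and 2.5e-20, where 3.49% were called. The mean log2 difference from zeatin was 1.57 for LBD16, 3.88 for LBD29 and 2.81 for HAT2, and the difference from GA3 was 1.55, 3.85 and 3.00. At 3 h alone the LBD16 difference from zeatin was 1.16 (adjusted p = 0.00188) and was lost without IAA 3 h replicate 1 (0.0882), on the deposited scale (0.062) and with only that set in the fit (0.0693). Its 3 h difference from GA3 was 1.27 (adjusted p = 0.000882) and was lost without IAA 3 h replicate 1 (0.0528), without GA3 3 h replicate 1 (0.0967) and with only that set in the fit (0.0584).

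**Figure D2:**
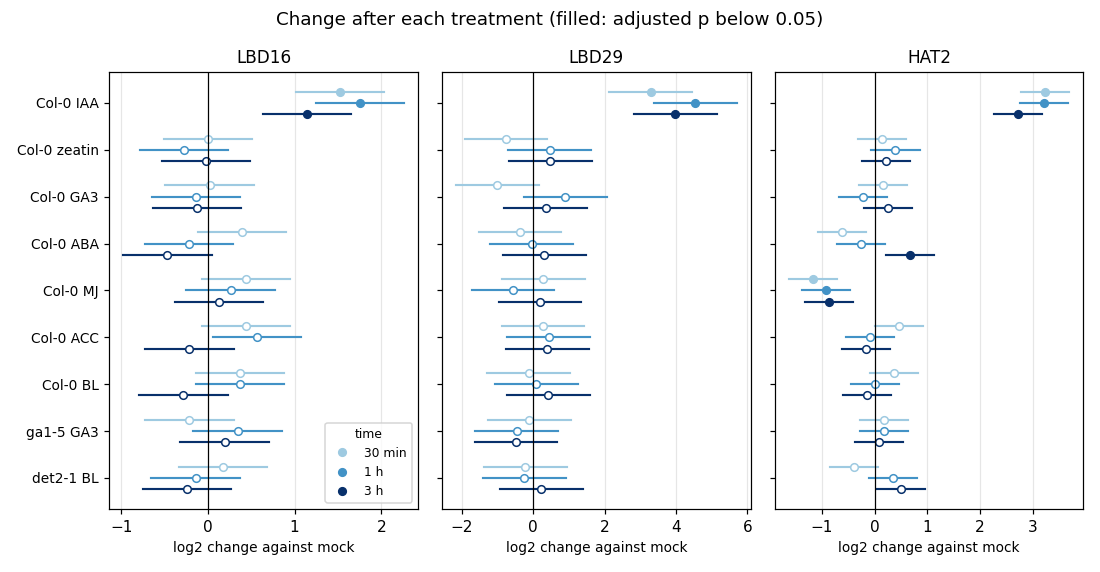
Change of LBD16, LBD29 and HAT2 against the mock of the same genotype and time on the log2 scale, with 95% intervals, for 9 hormone courses at 3 times. Filled points have an adjusted p below 0.05, and these are the 3 IAA points of each gene and, for HAT2 alone among the 3, the 3 MJ points and ABA at 3 h.

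Of the other hormones, MJ lowered HAT2. Its signal was 572 and 641 at 30 min, 664 and 801 at 1 h and 784 and 611 at 3 h, against the mock levels given above. All 6 MJ arrays were below all 6 Col-0 mock arrays, whose lowest value was 1243, and the 3 MJ groups had the lowest means of the 36 groups. HAT2 fell by 1.17 on the log2 scale at 30 min (SE 0.23, adjusted p = 0.000725), by 0.93 at 1 h (adjusted p = 0.00529) and by 0.86 at 3 h (adjusted p = 0.00951). These are 0.443, 0.524 and 0.551 of the mock level. Over all probe sets 0.406%, 2.02% and 3.97% were called lower at these times, and 9.68% were called over the course. The time course of HAT2 had an adjusted p of 1.96e-06 and passed under every setting tried and without any 1 array (highest adjusted p = 0.00137). Single times were less firm. On the deposited scale the adjusted p was 0.0601 at 30 min, 0.139 at 1 h and 0.18 at 3 h. The call also ended at 30 min without mock replicate 2 (0.0567), at 1 h without mock replicate 1 (0.0664) or MJ replicate 1 (0.131), and at 3 h without mock replicate 2 (0.091) or MJ replicate 2 (0.151).

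LBD16 and LBD29 were not called under MJ. LBD16 read 302 to 469 on the 6 MJ arrays, with a median of 362, and its course had an adjusted p of 0.587. LBD29 read 32.6 to 373, with a median of 162 (adjusted p = 0.917). The 3 root markers summed to 21873 to 43521 on the MJ arrays and 32947 to 45482 on the IAA arrays, against 28277 to 41239 under mock. The LHCB4 genes summed to 42138 to 72149 under MJ and 62236 to 83941 under IAA. These ranges overlap those of mock. Medians of the summed root markers were 27992 under MJ and 37323 under IAA, against 34240 under mock. Medians of the LHCB4 sums were 51541.5 under MJ and 65301 under IAA, against 65373 under mock. None of the 3 root markers was called under IAA or MJ at any time. Of the 17262 probe sets, 83, 141 and 618 were called under IAA at the 3 times and 311, 954 and 1354 under MJ. The part of tissue make-up in the HAT2 fall was not tested.

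ABA changed HAT2 over the time course (adjusted p = 0.0119), in a course where 20.7% of all probe sets were called. HAT2 read 1067 and 783 at 30 min, 1273 and 1106 at 1 h and 1881 and 2356 at 3 h. Both arrays were below both mock arrays at 30 min and 1 h and above them at 3 h. The LBD16 arrays under ABA also lay apart from the mock arrays at each time, without a call. The share of all probe sets that separate in this way is not given. The log2 changes were -0.62 (adjusted p = 0.493), -0.27 (0.839) and 0.67 (0.0217), so only the rise at 3 h, of 1.59-fold, passed, where 10.1% of all probe sets were called higher and the median of all was -0.16. The course was lost without ABA 30 min replicate 2 (0.0507), without ABA 3 h replicate 2 (0.0653) and on the deposited scale (0.267). The rise at 3 h did not pass on the deposited scale (0.181), or when replicate 1 (0.12) or replicate 2 (0.0582) of mock 3 h or replicate 2 of ABA 3 h (0.197) was left out. Under ABA, LBD16 read 201 to 402 (course adjusted p = 0.272) and LBD29 43.5 to 306 (0.945). The 3 root markers summed to 24276 to 38252 on the ABA arrays and the LHCB4 genes to 43565 to 71843.

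No other course was called for any of the 3 genes. Of all probe sets 1.37% were called under zeatin, 0.0232% under GA3, 1.15% under ACC, 3.66% under BL, 0.127% under GA3 in ga1-5 and 3.14% under BL in det2-1. HAT2 had medians over 6 arrays of 1580 under zeatin (range 1272 to 2210), 1537 under GA3 (1008 to 1697), 1433 under ACC (1096 to 2054) and 1372 under BL (1129 to 2355), against 1372 under mock (1243 to 1607). LBD16 had medians of 275 under zeatin (178 to 341), 272 under GA3 (220 to 404), 379 under ACC (238 to 480) and 348 under BL (225 to 402), against 297 under mock (221 to 382). These ranges pool the 3 times and all overlap mock. Against the mock of the same time, some groups lay apart from it without a call. For LBD16 these were zeatin at 1 h and ACC and BL at 30 min and 1 h. For HAT2 they were zeatin at 1 h and 3 h, ACC at 30 min and 3 h, and GA3 and BL at 3 h. How many of all probe sets lie apart like this is not given. Under ACC at 1 h both LBD16 arrays (409 and 480) were above both mock arrays, with a log2 change of 0.57 (95% interval 0.06 to 1.08, adjusted p = 0.455). LBD29 had medians of 205, 191, 239.8 and 181 in these 4 courses and 188 under mock. Its intervals of change were wide, as for zeatin at 3 h (0.48, -0.68 to 1.64 on the log2 scale).

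The order of the scaled levels showed the same gap. For LBD16 the 3 IAA groups were followed by GA3 at 1 h in ga1-5, at 613 and 508, which overlapped neither the group above nor the one below. Of the 35 pairs of neighbouring groups in that order, 32 overlapped. For LBD29 the next group was ga1-5 mock at 3 h, at 263 and 337, and 34 of 35 neighbouring pairs overlapped. For HAT2 the next was ABA at 3 h, and 33 of 35 overlapped. Sorting places groups of like level side by side, so overlap of neighbours is favoured by the order itself. These counts do not cover groups further apart. For HAT2 the arrays of MJ at 30 min (572 and 641) were below those of ABA at 3 h (1881 and 2356). The same counts are not given for all probe sets.

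Mock seedlings of the mutants were compared with mock seedlings of Col-0 over the 3 times. Each genotype lies in its own sets of arrays, so genotype and set cannot be told apart. Relative to the mean signal of each array, HAT2 was lower in both mutants, but on the deposited scale, where the mutant arrays are brighter as a whole, it was higher. HAT2 read 805 to 918 on the 6 ga1-5 mock arrays (median 852), 761 to 1374 on those of det2-1 (median 889) and 1243 to 1607 on those of Col-0. The ga1-5 arrays were all below the Col-0 arrays, and the det2-1 arrays overlapped them. After scaling HAT2 fell by 0.68 in ga1-5 (SE 0.13, adjusted p = 3.79e-05), where 19.9% of all probe sets were called lower, and by 0.53 in det2-1 (adjusted p = 0.00174), where 13.8% were. On the deposited scale the differences were 0.55 (adjusted p = 0.00428) and 0.51 (0.00798), while the medians of all probe sets were 1.23 and 1.05. Relative to those medians HAT2 was at -0.68 and -0.54.

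LBD16 read 307 to 461 in ga1-5 mock seedlings (median 438), 251 to 489 in det2-1 (median 315) and 221 to 382 in Col-0 (median 297). It was higher in ga1-5 by 0.42 (SE 0.15, adjusted p = 0.018), where 22.5% of all probe sets were called higher, although the ranges overlapped. That call ended without Col-0 mock 30 min replicate 2 (0.082), Col-0 mock 3 h replicate 1 (0.055) or ga1-5 mock 3 h replicate 2 (0.0843). In det2-1, where 13.3% of probe sets were called higher, the LBD16 difference was 0.15 (adjusted p = 0.492), and on the deposited scale it was 1.10 and passed (1.34e-06), near the median of all probe sets of 1.05 there. LBD29 differed by 0.51 in ga1-5 (0.222) and by 0.39 in det2-1 (0.41), and neither passed. On the deposited scale both passed, at 1.55 (0.000193) and 1.24 (0.00216), against medians of all probe sets of 1.23 and 1.05. Its ga1-5 difference was 0.91 and passed without Col-0 mock 1 h replicate 1 (adjusted p = 0.0219), and was 0.11 without Col-0 mock 1 h replicate 2. Without these same arrays in turn its det2-1 difference was 0.79 (0.0709) and -0.0084 (0.989).

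Some root and light-harvesting markers also differed between the genotypes, where 19.9% of all probe sets were called lower in ga1-5 and 13.8% in det2-1. The summed root markers were 8470 to 17245 in ga1-5 mock seedlings and 12438 to 22594 in det2-1, below the Col-0 range of 28277 to 41239. Of the 3, PYK10 fell by 1.60 in ga1-5 (adjusted p = 1.68e-09) and by 1.05 in det2-1 (2.41e-05), while EXPA7 and EXPA18 were not called. The LHCB4 genes summed to 22909 to 31931 in ga1-5 and 31399 to 43100 in det2-1, also below Col-0. LHCB4.1 and LHCB4.2 differed by -1.18 and -1.68 in ga1-5 and by -1.15 and -0.79 in det2-1 on the log2 scale, all called, while LHCB4.3 differed by 0.11 (adjusted p = 0.711) and 0.35 (0.207) and was not called. Their part in the HAT2 and LBD16 differences was not tested. GA1 and DET2, the genes for which the mutants are named, are not named by a probe set used here, so the genotype labels were not checked on them.

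**Figure D3:**
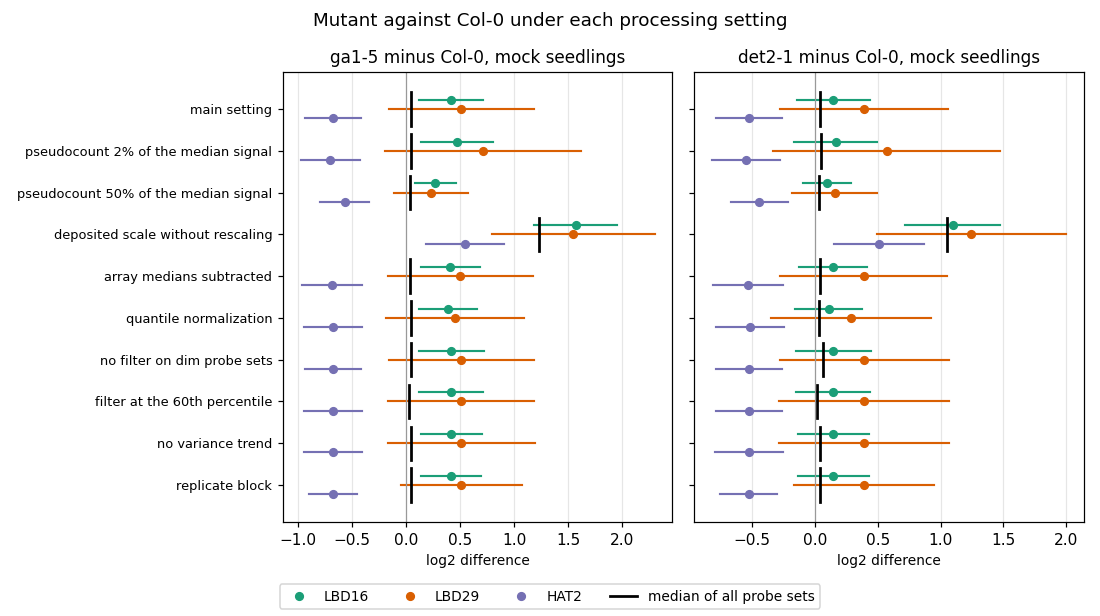
Mutant minus Col-0 difference of LBD16, LBD29 and HAT2 in mock seedlings on the log2 scale with 95% intervals, under the main setting and 9 others, with the median of all probe sets as a black bar. HAT2 lies below the bar under each of these settings, and its difference is above 0 only on the deposited scale, where the bar itself is at 1.23 and 1.05.

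The hormone that each mutant lacks did not detectably change the 3 genes. Under GA3 in ga1-5, HAT2 read 716 to 1268 over all 12 ga1-5 arrays, mock included, and its changes were 0.18, 0.18 and 0.08 (course adjusted p = 1). Under BL in det2-1, HAT2 changed by -0.40, 0.34 and 0.50. At 3 h both BL arrays (1159.9 and 1117) were above both mock arrays (761 and 820.2), with adjusted p = 0.287. The BL arrays were above both mock arrays at 1 h too, and the share of all probe sets that separate so is not given. The BL response of HAT2 in det2-1 minus that in Col-0 was -0.75, 0.34 and 0.65 at the 3 times, and the test of this difference did not pass (adjusted p = 0.564, with 0.0869% of probe sets called). For LBD16 and LBD29 the same test gave adjusted p = 0.959 and 1. The GA3 response did not differ between ga1-5 and Col-0 for any of the 3 genes by a test that called 0% of all probe sets (0 by limma, 351 at an unadjusted p under 0.05).

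Other auxin genes on the lists were covered thinly, since many are not named by a probe set used here. None of the 6 TIR1/AFB receptors and none of the 22 ARF genes on the lists is named. The LOB domain list holds 43 genes, of which LBD16 and LBD29 are the 2 named, and the class II list holds 10, of which HAT2 is the 1 named. Of the 29 Aux/IAA repressors 6 were tested, and 1 rose at 30 min, 2 at 1 h and 2 at 3 h (0.475%, 0.718% and 1.72% of all probe sets), with a median log2 change of 0.62 at 3 h against 0.00 for all probe sets. These were IAA29, which rose 3.42-fold, 10.3-fold and 15.3-fold, and IAA30, at 1.71-fold (not called), 4.21-fold and 7.14-fold.

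Of the 8 GH3 enzymes, which attach amino acids to auxin, 5 were tested, and 2, 3 and 3 rose at the 3 times (0.475%, 0.718% and 1.72% of all probe sets), with a median of 3.22 at 3 h. GH3.3 rose 12.6-fold with 1 treated array at 30 min, then 40.3-fold and 38.7-fold. WES1 (GH3.5) rose 2.65-fold, 6.76-fold and 12.6-fold. GH3.1 was at 1.82 on the log2 scale at 30 min (adjusted p = 0.078), then rose by 1.96 and 3.22. Among the listed genes called under IAA, IAA29, IAA30, WES1 and GH3.1 had larger values at 3 h than at 1 h. GH3.3 was nearly level, at 5.33 and 5.27 on the log2 scale (SE 0.25). The values of LBD16, LBD29 and HAT2 were smaller at 3 h. That contrast between the genes was not tested.

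Under MJ, GH3.3 rose by 1.41 at 1 h and 1.18 at 3 h, while WES1 fell by 0.89 at 1 h (adjusted p = 0.00364), GH3.17 fell by 1.05 at 1 h (0.000196) and GH3.1 fell by 1.61 at 3 h (0.024). ABA at 3 h raised GH3.3 by 2.61 (adjusted p = 4.47e-11), WES1 by 1.61 (5.68e-08) and IAA30 by 1.03 (0.0193). GH3.17 was at -0.79 there (0.00179). Of all probe sets 10.1% were called higher under ABA at 3 h. PUCHI, a further transcription factor of lateral root formation, was at 1.01 under IAA at 3 h (adjusted p = 0.0535), so of the 3 tested of 21 genes on that list the 2 called were LBD16 and LBD29 themselves. WAG2, a kinase that acts on auxin carriers and the 1 tested of 18 transport genes, was not called under IAA (course adjusted p = 0.124) and fell by 1.39 under MJ at 3 h (0.0219).

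**Figure D4:**
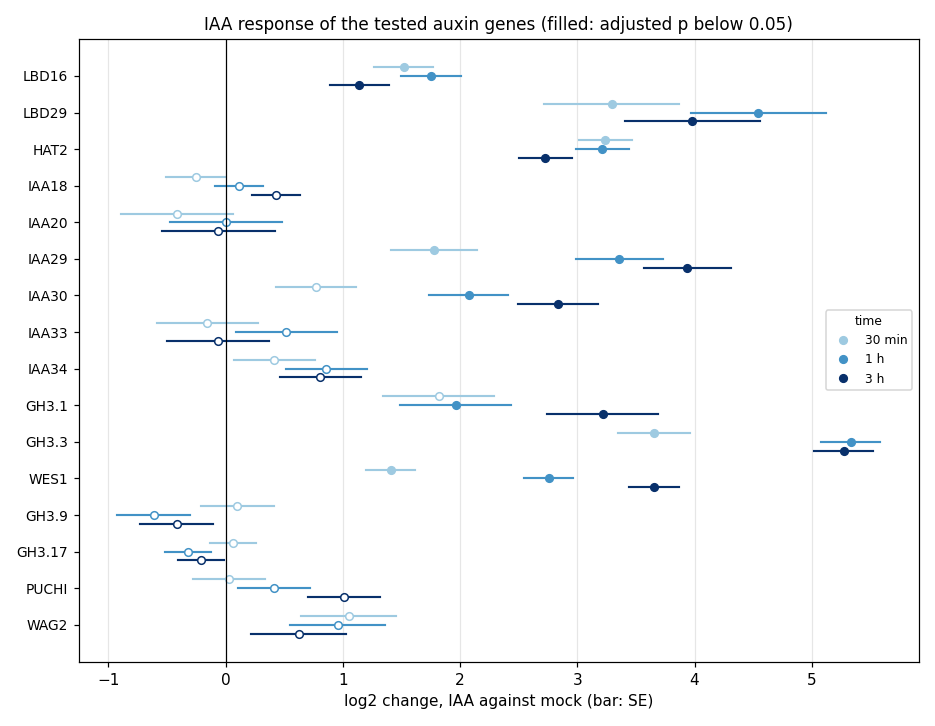
IAA minus mock change on the log2 scale, with SE bars, of the tested genes on the auxin lists at 30 min, 1 h and 3 h, filled where the adjusted p is below 0.05. The points of LBD16, LBD29 and HAT2 are filled at all 3 times, as are those of IAA29, GH3.3 and WES1.

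The genes whose group means followed those of each gene most closely were ranked by Pearson's correlation over the 36 groups, as a description in which all points share the array scaling and many share mock arrays. For LBD16 they were LBD29 (0.797), AT3G50340 (0.774), the U-box ubiquitin ligase gene PUB23 (0.767), AT1G65920 (0.728) and AT3G60260 (0.702). For LBD29 they were IAA29 (0.852), HAT2 (0.837), GH3.3 (0.832), AT3G50340 (0.825) and WES1 (0.797). For HAT2 they were LBD29 (0.837), IAA29 (0.836), GH3.3 (0.823), AT3G42800 (0.819) and AT3G50340 (0.813). AT3G50340 was on all 3 lists, and its IAA changes were 1.49, 2.18 and 2.06.

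These correlations rested on the IAA groups. Without the 3 IAA groups, the correlation over the other 33 was 0.132 between LBD16 and LBD29, -0.487 between LBD16 and HAT2 and -0.115 between LBD29 and HAT2, against 0.797, 0.628 and 0.837 with them. None of the 5 genes of any list was among the 5 chosen without the IAA groups, and none among the 5 chosen by Spearman's correlation. Over the 33 groups the 5 genes listed for LBD16 were at 0.132 (LBD29) to 0.588 (PUB23). Those listed for LBD29 were at -0.115 (HAT2) to 0.151 (AT3G50340). Those listed for HAT2 were at -0.115 (LBD29) to 0.447 (AT3G42800). Values for all probe sets are not given beside these.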

How the data were processed

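For each array the deposited table gives a linear signal intensity per probe set, which the authors computed by MAS5, as the submitters' processing notes record. The table holds 22810 probe sets, of which 64 controls were left out. By the platform annotation 13513 of them carry the name of 1 gene, 503 carry several names and 8730 none. No detection calls were used, and the number of arrays limits the precision.

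Impossible values on 1 array, in stretches of 1700 and 273 consecutive probe sets, were set to missing. Arrays were scaled to a common 2% trimmed mean (1156) and log2(signal + 54.6) was taken, 54.6 being 10% of the median signal. Probe sets above the 40th percentile on at least 2 arrays were tested. Group means were fitted to all 72 arrays with limma 3.58.1 (R 4.3.3), with an intensity trend and 36 residual degrees of freedom. Moderated t at single times and moderated F over the 3 times were adjusted by Benjamini-Hochberg over all 17262 probe sets, with a threshold of 0.05, and every adjusted p given is limma's. The fit was tested on simulated data. Figures were drawn with matplotlib 3.10.9.

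The 3 genes and the lists were chosen with earlier results of these data known. Genes were named by a rule: the 3 genes, the 5 most correlated with each, up to 4 per list with the smallest adjusted p under IAA, and every tested gene of both families. GH3.17 was added after its values were seen, and the LHCB4 genes after the annotation was seen.

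Replicate numbers are those of the labels. To see whether they pair treated with mock arrays, each array's deviation from its group was correlated with that of its same-numbered partner. The lowest correlation over the 3 times was 0.316 for zeatin, 0.273 for GA3 and 0.269 for IAA in Col-0, 0.145 for BL in det2-1 and 0.135 for ABA. These courses exceeded the limit of 0.1 set for pairing. The lowest correlation was 0.07 for MJ, 0.0539 for GA3 in ga1-5, 0.037 for BL and 0.0176 for ACC in Col-0. The main fit used no pairing in any course, so its p-values are unpaired. Pairing entered only through the replicate block among the alternatives.

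Alternatives were other pseudocounts, scalings, filters, no trend, only the sets compared, a replicate block and leaving out each array.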

Additional observations from a re-analysis of the deposited data

How the results depend on the processing

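The IAA time courses of LBD16, LBD29 and HAT2 and the MJ time course of HAT2 passed under all 10 other settings and without any 1 of 12 arrays. The pseudocount set the size of the LBD29 rise, whose mean log2 change was 4.35 with 2% and 2.97 with 50% of the median signal, and at 1 h 35.8-fold and 10.4-fold. On the deposited scale the ABA course of HAT2 no longer passed. Its mean log2 change over the 3 times was -0.070 there, a mean in which changes of opposite sign cancel. The ga1-5 and det2-1 differences of HAT2 turned to 0.55 and 0.51 on that scale. Those of LBD29 rose to 1.55 and 1.24 and passed. Those of LBD16 rose to 1.57 and 1.10, the latter now passing too. The medians of all probe sets are 1.23 and 1.05 on that scale. Leaving out 1 array, this mean of the HAT2 changes under ABA ranged from -0.14 to -0.0014. The HAT2 change itself ranged from -0.83 to -0.41 at 30 min and from 0.52 to 0.83 at 3 h. The LBD16 difference in ga1-5 ranged from 0.34 to 0.50 and that of LBD29 from 0.11 to 0.91. A group left with 1 array was taken to vary like the other groups.

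The replicate block changed no call of the 3 genes. Counts over all probe sets moved more. With the replicate block the IAA course went from 526 to 957 calls, zeatin from 236 to 576, GA3 from 4 to 17, MJ from 1671 to 2701, ACC from 198 to 581, BL from 631 to 1874, GA3 in ga1-5 from 22 to 123, BL in det2-1 from 542 to 1098, IAA minus zeatin from 918 to 1568, IAA minus GA3 from 603 to 1115 and the BL response difference from 15 to 82. On the deposited scale the same counts were 169, 40, 0, 718, 15, 78, 12, 214, 308, 192 and 9, and ABA went from 3568 to 1347. With only the sets compared, zeatin had 142 calls, GA3 1, ACC 117, BL 336 and GA3 in ga1-5 46. BL had 1136 with array medians subtracted, GA3 had 9 with the 2% pseudocount, and GA3 in ga1-5 had 13 after quantile normalization. The mutant differences went from 7309 to 15896 calls in ga1-5 and from 4672 to 15723 in det2-1 on the deposited scale. At single times the deposited scale gave 39, 56 and 168 calls under IAA (83, 141 and 618 in the main setting), 133, 413 and 524 under MJ (311, 954 and 1354) and 2059 under ABA at 3 h (4648), and the block gave 263 and 1102 under IAA at 1 h and 3 h and 490, 1498 and 2238 under MJ. Leaving out 1 array gave as few as 33, 80 and 346 calls under IAA at the 3 times (without IAA replicate 1, mock replicate 1 and IAA replicate 1 of that time) and 158, 520 and 856 under MJ (without MJ replicate 1, MJ replicate 1 and mock replicate 1). Among the courses it gave 138 calls under zeatin (without zeatin 3 h replicate 2), 1 under GA3 (without GA3 3 h replicate 2), 124 under ACC (without ACC 1 h replicate 1), 367 under BL (without mock 1 h replicate 2), 355 under BL in det2-1 (without BL 3 h replicate 2), 10 to 35 under GA3 in ga1-5 (without mock 3 h replicate 2 and mock 30 min replicate 2) and up to 66 for the BL response difference (without det2-1 BL 30 min replicate 2). Between IAA times it gave 37 to 86 calls from 30 min to 3 h and 23 to 43 from 1 h to 3 h. The cause was not tested. Dim signals limit LBD29 most.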
